A study of Rattus norvegicus with 8 samples.

Results

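A set of 10 genes that read the activin and bone morphogenetic protein (BMP) side of the transforming growth factor beta (TGF-beta) superfamily were followed through SF2 cells, an epithelial line from the cervical loop of the rat lower incisor. The members are Inhba, the secreted binding proteins Fst, Fstl1 and Fstl3, the inhibitors of DNA binding Id1, Id2, Id3 and Id4, Bambi and Tsc22d1, taken by symbol: all 10 were found among the 30240 genes of the deposited table. In the libraries labelled TGF, Fst, Fstl1 and Tsc22d1 were higher than in those labelled N, each past the test. Tsc22d1, Fstl1 and Fst were lower in cells labelled as AmeloD-overexpressing than in Control cells. Of 8 refits that left out a library, Tsc22d1 passed the test for this difference in 8, Fstl1 in 7 and Fst in 2. Id1 and Id3 lay lower in every TGF library than in every N library, but neither passed the test on the deposited scale.

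Cells labelled AmeloD-overexpressing and Control cells each carried the plasmid label pCMV6.ODAM or pCMV6, and each of these 4 came with the label TGF or N, which gives 8 combinations of 1 library each. AmeloD, the product of Ascl5, is a dental epithelial transcription factor of the basic helix-loop-helix class. Odam encodes odontogenic ameloblast-associated protein. The labels do not spell out N and TGF, name a dose or a duration, or say how AmeloD was overexpressed and whether the cells were clones. All groups share the SF2 background and carried a pCMV6 plasmid label, and cells without one were not analysed here. Each factor compares 4 libraries with 4 that match them in the other 2 factors. A matched pair below is 2 libraries that differ in 1 factor alone.

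Activins are dimers of inhibin beta subunits that signal through Smad2 and Smad3, as TGF-beta does, whereas BMPs signal through Smad1, Smad5 and Smad9 and switch on the Id genes as classic early targets. Follistatin and its relatives bind these ligands outside the cell and keep them from their receptors, and Id proteins hold a helix-loop-helix without the basic part that contacts DNA, so that they sequester basic helix-loop-helix factors. In the tooth, activin, follistatin and BMPs are known for setting where enamel-forming epithelium develops in the rodent incisor.

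The values are CPM, reads of a 3'-end library scaled to its total, so a level is compared between libraries and not between genes. That comparison rests on the scaling. Genes of the table held 15.6% to 17.5% of a library total, and other scalings are described below. The libraries totalled 10568146 to 17775226 reads, of which 1662973 to 2854134 fell on genes of the table, and the AmeloD libraries (at most 13668736 reads) were all shallower than the Control libraries (at least 14766931). Pmepa1, a TGF-beta-induced regulator of Smads, had 446 reads in the TGF and 5 in the N libraries. Of the Odam reads, 31 came from libraries labelled pCMV6.ODAM (10 and 17 in Control, 1 and 3 in AmeloD) and 1 from a pCMV6 library, and Ascl5 had 0 reads in all 8, so the AmeloD label could not be checked by its own transcript. Of 8 dental epithelial markers 6 were in the table, all with reads, and their summed level was 733 to 841 CPM in AmeloD and 501 to 642 CPM in Control libraries. Of 8 mesenchymal markers 5 had 0 reads (Col1a2, Pdgfrb, Thy1, Dcn and Lum). The list summed to 17.4 to 26.4 CPM in AmeloD and 33.4 to 63.0 CPM in Control. Nearly all of that sum was Col3a1, with 3916 reads beside 4 for Col1a1 and 2 for Pdgfra. Odontoblast and endothelial markers summed to at most 0.0924 CPM. Leukocyte markers, with Csf1r and Lyz2 at 0 reads, summed to 2.77 to 3.79 CPM in AmeloD and 0.814 to 1.62 CPM in Control. Nearly all of the leukocyte sum was Cd68, with 233 reads, while Ptprc, Cd3e and Itgam had 1 read each. In bulk RNA, fewer cells of a type and less RNA per cell cannot be told apart.

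RefSeq promoter windows of the build GRCr8, reaching from 250 bases before to 50 after a start, were found for 9 of the 10 members, with 10 windows in all. The windows shown are those of the BMP-type targets Id1 and Id3, which lay low with TGF, and of Fstl1 and Tsc22d1. Both of the latter were higher with TGF and lower in AmeloD. Capitals mark CAGAC, a Smad-binding letter string, and GGCGCC, a string described for BMP Smads, each searched on both strands, so that GTCTG marks CAGAC on the other strand. The sequences are written 5' to 3' on the strand of the gene.

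Id1 (chr3:161671314-161671613, plus strand): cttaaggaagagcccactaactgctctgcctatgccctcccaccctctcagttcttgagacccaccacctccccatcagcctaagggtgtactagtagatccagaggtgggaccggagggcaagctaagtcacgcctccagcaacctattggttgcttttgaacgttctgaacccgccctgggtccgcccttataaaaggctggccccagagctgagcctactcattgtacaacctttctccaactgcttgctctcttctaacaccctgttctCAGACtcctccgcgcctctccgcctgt

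Id3 (chr5:153656041-153656340, plus strand): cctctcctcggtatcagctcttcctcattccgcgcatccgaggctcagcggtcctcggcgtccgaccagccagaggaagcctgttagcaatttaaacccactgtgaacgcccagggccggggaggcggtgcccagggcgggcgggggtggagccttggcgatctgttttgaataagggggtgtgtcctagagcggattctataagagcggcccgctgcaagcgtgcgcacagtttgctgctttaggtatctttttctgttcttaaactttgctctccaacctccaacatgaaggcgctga

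Fstl1 (chr11:76454004-76454303, minus strand): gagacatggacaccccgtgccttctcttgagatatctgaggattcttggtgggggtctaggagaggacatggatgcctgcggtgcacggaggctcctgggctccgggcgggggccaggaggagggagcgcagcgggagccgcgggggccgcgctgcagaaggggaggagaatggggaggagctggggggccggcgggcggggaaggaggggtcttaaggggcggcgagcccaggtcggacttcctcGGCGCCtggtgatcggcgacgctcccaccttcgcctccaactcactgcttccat

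Tsc22d1, first start (chr15:58159528-58159827, plus strand): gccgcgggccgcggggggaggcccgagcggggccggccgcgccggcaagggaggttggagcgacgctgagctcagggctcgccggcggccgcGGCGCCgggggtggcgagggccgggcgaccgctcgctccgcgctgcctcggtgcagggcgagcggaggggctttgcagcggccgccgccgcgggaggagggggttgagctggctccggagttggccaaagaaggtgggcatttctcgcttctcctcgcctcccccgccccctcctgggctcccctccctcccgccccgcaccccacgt

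Tsc22d1, second start (chr15:58256751-58257050, plus strand): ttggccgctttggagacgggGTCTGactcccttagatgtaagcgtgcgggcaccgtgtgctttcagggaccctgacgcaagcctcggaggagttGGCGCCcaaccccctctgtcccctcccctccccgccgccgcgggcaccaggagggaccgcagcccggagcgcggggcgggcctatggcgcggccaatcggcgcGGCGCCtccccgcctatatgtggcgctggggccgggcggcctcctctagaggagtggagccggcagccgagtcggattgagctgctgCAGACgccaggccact

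The Id1 window held CAGAC once and the Id3 window held neither string. The Fstl1 window and the first Tsc22d1 window each held the BMP Smad string once, and the second Tsc22d1 window held each string at 2 places. The BMP Smad string also stood once in the windows of Id4 and Bambi, and the other string stood at 2 places in that of Fstl3 and once in that of Inhba. Of all 33469 windows of this length, 50.1% held CAGAC and 11.0% the BMP Smad string. The latter is made of G and C alone, and the member windows that held it were 65.0% to 79.0% G and C. The share over all windows was not matched for that. The E-box bound by basic helix-loop-helix factors, searched as CANNTG, was in 72.1% of all windows. It was in those of Id1, Id2, Inhba, Bambi and Fstl3, and in none of the windows of Id3, Id4, Fstl1 and Tsc22d1, which says only that these letters are not there. The strings overlapped in the Fstl3 window alone, by 1 base. A match is a description and not a binding site.

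Of the 10 members, 8 reached 1 CPM in at least 4 libraries and were tested with limma on log2(CPM + 1), with Benjamini-Hochberg adjustment over all 6849 genes that did so and a threshold of 0.05. Fold changes below are on that scale, which understates the change of low genes. With TGF, 3 of the 8 tested members were called, all of them higher, while among all tested genes 1.53% were called higher and 0.277% lower. At an unadjusted p under 0.05, 7 of the 8 members differed with TGF, and 816 of all genes did. Id4 reached 1 CPM in the 4 Control libraries alone, so the filter itself fixed that its genotypes differ, and it is left out of the counts for genotype. Of the other 7 members 3 were called for genotype, all of them lower in AmeloD, beside 4.75% of all tested genes called lower and 9.07% called higher. The median change of the 8 tested members was 0.44 with TGF, beside 0.036 over all genes, and that of the 7 was 0.015 with genotype, beside 0.048. Under the scalings TMM and equal medians, 1 more member, Id1, was called, lower with TGF, while edgeR and DESeq2 did not call Id1.

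**Figure D1:**
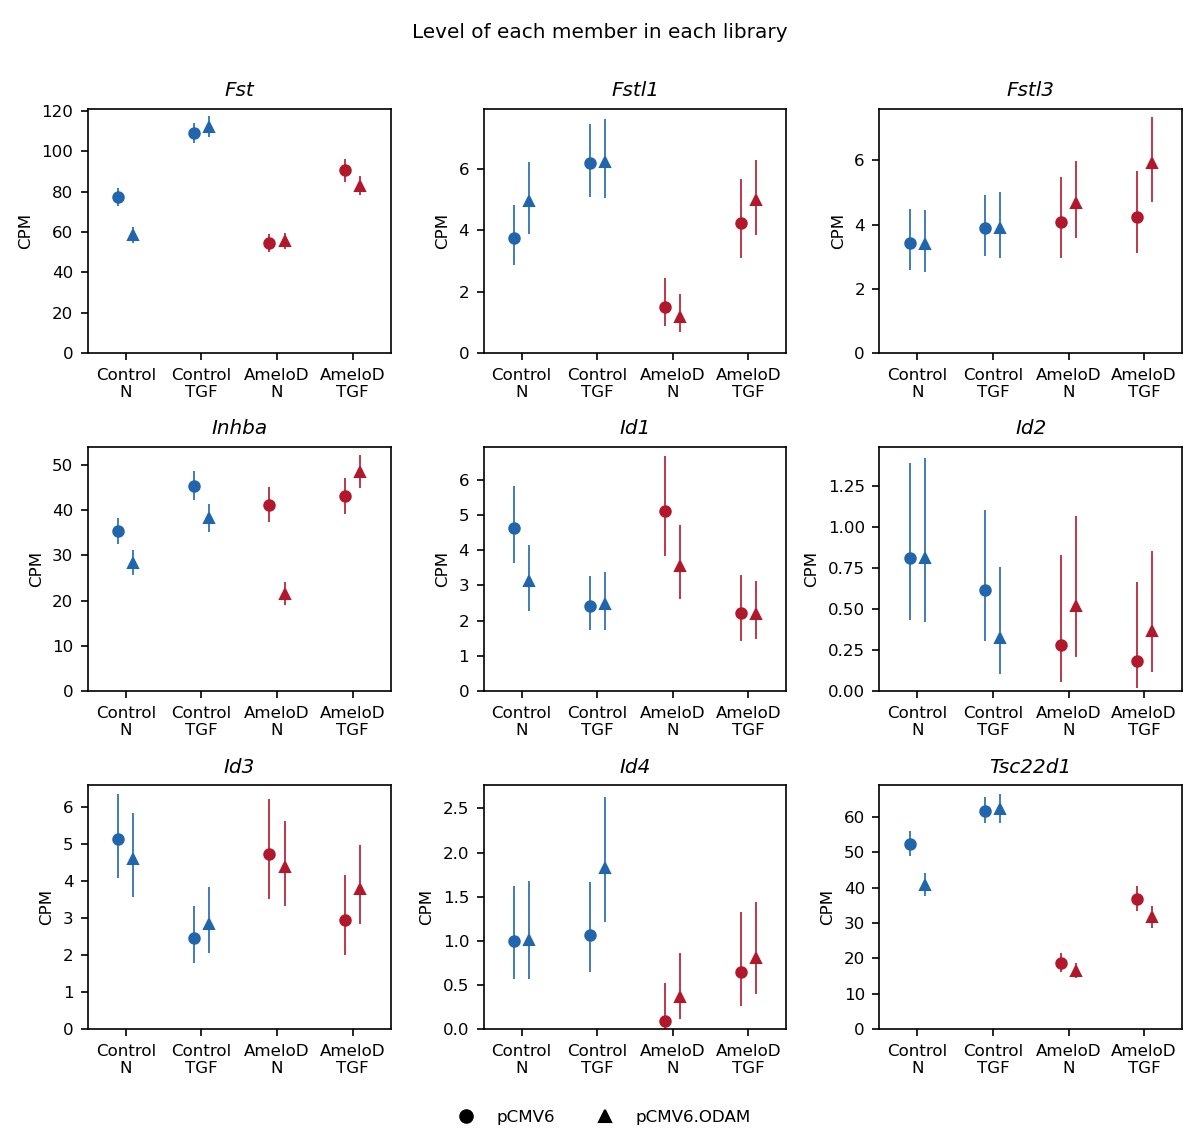
Level in CPM (linear axis from 0) of the 9 members with reads, 1 point per library, grouped by genotype and by N or TGF. Circles are pCMV6, triangles pCMV6.ODAM, and bars are exact 95% binomial intervals, which cover counting error only. Fst is higher in each TGF library than in each N library, Tsc22d1 is lower in each AmeloD library than in each Control library, and Id1 and Id3 are lower in each TGF library than in each N library.

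Inhba (ENSRNOG00000014320, mRatBN7.2 chromosome 17, 49095920 to 49108982, minus strand) encodes the inhibin beta A subunit, a pair of which makes activin A. Its level was 35.3 and 28.3 CPM in Control N (pCMV6 first, then pCMV6.ODAM, an order kept throughout), 45.3 and 38.2 in Control TGF, 41.1 and 21.4 in AmeloD N, and 43.1 and 48.4 in AmeloD TGF. The lowest value was that of AmeloD pCMV6.ODAM N, and the N and TGF libraries overlapped, although each TGF library was above the N library it matched. The mean was 43.8 ± 4.31 CPM (SD, n = 4) with TGF and 31.5 ± 8.51 CPM (SD, n = 4) with N. The difference was 0.49 ± 0.13 (log2, SE) and missed the threshold (limma, adjusted p = 0.0614). It passed without AmeloD pCMV6 N (adjusted p = 0.0259), without AmeloD pCMV6 TGF (adjusted p = 0.0293) and with all interaction terms in the limma fit (adjusted p = 0.0262).

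By genotype the Inhba difference was 0.02 ± 0.13 (log2, SE; adjusted p = 0.945 by limma), and its sign changed with TMM scaling (-0.05). Within the pCMV6.ODAM libraries its TGF difference was 0.78 ± 0.17 (adjusted p = 0.0173), and 1.23% of all tested genes were called in that contrast. Within the pCMV6 libraries it was 0.21 ± 0.17 (adjusted p = 0.817), where 0.511% of all genes were called. The test of the difference between the plasmids was not passed, at 0.57 ± 0.23 (limma, adjusted p = 0.653). The median of all genes was itself shifted by 0.120 with TGF within pCMV6.ODAM and by -0.034 within pCMV6. With TMM scaling, which brings the median of the former to -0.0038, the Inhba difference there was 0.63 and was no longer called (limma, adjusted p = 0.0982), and without AmeloD pCMV6.ODAM N it was 0.51 (adjusted p = 0.417).

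Fst (ENSRNOG00000011631, mRatBN7.2 chromosome 2, 46123439 to 46130571, minus strand) encodes follistatin, the high-affinity activin-binding protein. It stood at 77.3 and 58.6 CPM in Control N, 109 and 112 in Control TGF, 54.5 and 55.4 in AmeloD N, and 90.5 and 82.8 in AmeloD TGF. The lowest TGF library was above the highest N library, which held for 3.11% of all tested genes in this direction. Fst rose from 61.4 ± 10.7 CPM with N to 98.6 ± 14.2 CPM with TGF (SD, n = 4 each), by 0.68 ± 0.10 (log2, SE; limma adjusted p = 0.000196), or 1.60-fold. It was called whichever library was left out, with 0.60 to 0.74, and under all 12 other alternatives.

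The rise of Fst was called within each genotype and each plasmid taken alone. It was 0.71 in Control (limma, adjusted p = 0.0184; 0.453% of all genes called), 0.65 in AmeloD (adjusted p = 0.0267; 0.847% called), 0.60 in pCMV6 (adjusted p = 0.0472) and 0.75 in pCMV6.ODAM (adjusted p = 0.00441). These contrasts rest on 2 libraries a side, and each lost its call in some refits that left out a library. Each also lost it without the trend (limma, adjusted p = 0.216 to 0.558). All but the pCMV6.ODAM contrast lost it with the filter of 1 read in 1 library, and the AmeloD contrast with edgeR (adjusted p = 0.0688). The difference between the genotypes in the TGF response was -0.06 ± 0.22 (log2, SE; adjusted p = 0.999 by limma).

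In all 4 matched pairs Fst was lower in AmeloD than in Control, as were 12.6% of all tested genes. The mean was 70.8 ± 18.6 CPM in AmeloD and 89.3 ± 25.8 CPM in Control (SD, n = 4 each), groups that overlapped. The difference of -0.32 ± 0.10 (log2, SE) was called (limma, adjusted p = 0.0368). That call was lost without any of 6 libraries (all but AmeloD pCMV6.ODAM N and Control pCMV6.ODAM N), with adjusted p up to 0.165, with the weakest filter on low genes (adjusted p = 0.0837) and without the trend (adjusted p = 0.178). Ordered by genotype and label, Fst was highest in Control TGF (111 ± 2.34 CPM), then in AmeloD TGF (86.6 ± 5.40), Control N (67.9 ± 13.2) and AmeloD N (55.0 ± 0.632; SD, n = 2 each). No neighbouring groups in this order overlapped.

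Fstl1 (ENSRNOG00000002746, mRatBN7.2 chromosome 11, 62779783 to 62948677, minus strand) encodes a secreted glycoprotein with a follistatin domain that is known to bind BMPs. Its level was 3.76 and 4.94 CPM in Control N, 6.19 and 6.24 in Control TGF, 1.51 and 1.19 in AmeloD N, and 4.25 and 4.97 in AmeloD TGF. AmeloD N stood below all other libraries, and the TGF libraries of AmeloD lay among or above the N libraries of Control. With TGF the mean was 5.41 ± 0.971 CPM against 2.85 ± 1.80 CPM with N (SD, n = 4 each), a rise of 0.85 ± 0.19 (log2, SE; limma adjusted p = 0.0137) seen in 4 of 4 pairs. The call did not hold without any one of the AmeloD libraries (adjusted p = 0.0538 to 0.135) or with edgeR on recovered reads (adjusted p = 0.0526). It was also lost with the filter of 1 read in 1 library (limma, adjusted p = 0.0642) and without the trend (adjusted p = 0.0563).

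Fstl1 was lower in AmeloD in 4 of 4 pairs, with 2.98 ± 1.91 CPM against 5.28 ± 1.18 CPM in Control (SD, n = 4 each). The difference was -0.77 ± 0.19 (log2, SE; limma adjusted p = 0.00600), and it was not called without Control pCMV6.ODAM N (-0.61, adjusted p = 0.0621). Among the N libraries alone it was -1.18 ± 0.25 (adjusted p = 0.00207; 6.63% of all genes called), and among the TGF libraries -0.37 ± 0.25 (adjusted p = 0.512; 5.11% called). The TGF difference was 1.26 ± 0.25 in AmeloD (adjusted p = 0.00384) and 0.44 ± 0.25 in Control (adjusted p = 0.906). With the filter of 1 read in 1 library the AmeloD difference was not called (limma, adjusted p = 0.0727). The call in AmeloD was lost without AmeloD pCMV6.ODAM N (adjusted p = 0.155 by limma) or AmeloD pCMV6.ODAM TGF (adjusted p = 0.0927), and the call among the N libraries without AmeloD pCMV6.ODAM N (adjusted p = 0.0643) or Control pCMV6.ODAM N (adjusted p = 0.140). The genotypes' TGF responses differed by 0.82 ± 0.36, a difference that did not pass after adjustment (limma, adjusted p = 0.999).

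Fstl3 (ENSRNOG00000009311, mRatBN7.2 chromosome 7, 9923576 to 9939639, minus strand) encodes a follistatin-like protein that also binds activin. It stood at 3.44 and 3.39 CPM in Control N, 3.88 and 3.90 in Control TGF, 4.07 and 4.67 in AmeloD N, and 4.25 and 5.93 in AmeloD TGF. Each AmeloD library was above each Control library, as for 9.49% of all tested genes, but the difference of 0.29 ± 0.16 (log2, SE) was not called (limma, adjusted p = 0.268). With TGF it was 0.16 ± 0.16 (adjusted p = 0.785). Among the 3 follistatin-type proteins it was thus the one whose mean was higher in AmeloD.

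**Figure D2:**
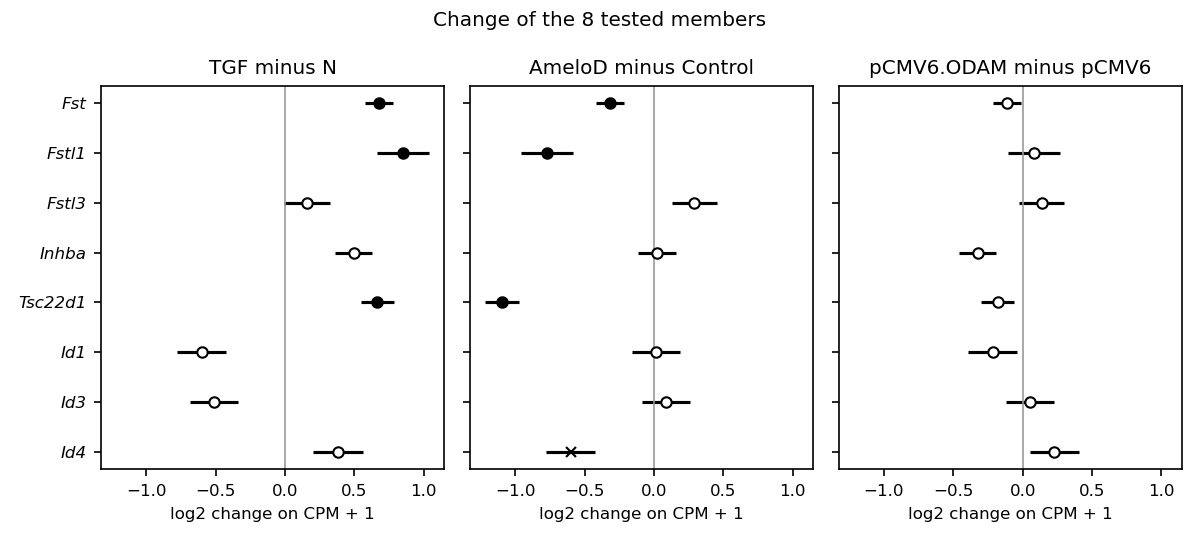
Log2 change on the CPM + 1 scale (points) with its SE (bars) of the 8 tested members for TGF minus N, AmeloD minus Control and pCMV6.ODAM minus pCMV6, from 8 libraries; filled points passed the limma test, and the cross marks Id4 by genotype, whose difference the filter fixed. With TGF the 3 filled points are Fst at 0.68, Fstl1 at 0.85 and Tsc22d1 at 0.67; with genotype the filled points run from Fst at -0.32 to Tsc22d1 at -1.09; with plasmid none is filled.

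Id1 (ENSRNOG00000021750, mRatBN7.2 chromosome 3, 141211267 to 141212419, plus strand) is the member of the Id family most used as a readout of BMP signalling. It stood at 4.63 and 3.12 CPM in Control N, 2.42 and 2.47 in Control TGF, 5.11 and 3.56 in AmeloD N, and 2.22 and 2.19 in AmeloD TGF. The 4 TGF libraries lay close together below the whole range of the N libraries. The mean was 2.33 ± 0.139 CPM with TGF and 4.10 ± 0.924 CPM with N (SD, n = 4 each), from 135 and 222 reads. The ratio of summed reads per library total was 0.578 (exact 95% interval 0.463 to 0.719, counting error only).

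The Id1 difference with TGF was -0.60 ± 0.18 (log2, SE) and missed the threshold on the deposited scale (limma, adjusted p = 0.0916). It passed in 2 of 11 alternatives, TMM scaling (-0.64, limma adjusted p = 0.0469) and equal medians (-0.65, adjusted p = 0.0473). Neither edgeR nor DESeq2 called it. Of 8 limma refits that left out a library, 0 called it (adjusted p = 0.0830 to 0.291). By genotype the difference was 0.01 ± 0.18 (adjusted p = 0.973 by limma), with AmeloD higher in 2 of 4 pairs and a sign that changed with TMM scaling (-0.04).

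Id3 (ENSRNOG00000026124, mRatBN7.2 chromosome 5, 148372762 to 148374349, plus strand) encodes a close relative of Id1. It stood at 5.13 and 4.60 CPM in Control N, 2.48 and 2.86 in Control TGF, 4.73 and 4.38 in AmeloD N, and 2.96 and 3.80 in AmeloD TGF. Like those of Id1, the TGF libraries of Id3 lay below all N libraries, an arrangement found for 1.15% of all tested genes in this direction. The mean was 3.02 ± 0.560 CPM with TGF and 4.71 ± 0.317 CPM with N (SD, n = 4 each). The ratio of summed reads per total was 0.631 (exact 95% interval 0.517 to 0.768), and the difference of -0.51 ± 0.17 (log2, SE) was not called (limma, adjusted p = 0.154). By genotype it was 0.09 ± 0.17 (adjusted p = 0.804).

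Id2 (ENSRNOG00000007237, mRatBN7.2 chromosome 6, 41728946 to 41744400, minus strand) was under the filter and has no test. It had 13 and 12 reads in Control N, 11 and 5 in Control TGF, 3 and 7 in AmeloD N, and 2 and 5 in AmeloD TGF. Its TGF library was below the N library in 4 of 4 pairs, but the ratio of 23 to 35 reads per total was 0.625 with an exact 95% interval of 0.352 to 1.09. For genotype the ratio of 17 to 41 reads was 0.546 (0.291 to 0.982).

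Id4 (ENSRNOG00000016099, mRatBN7.2 chromosome 17, 16389387 to 16392470, minus strand) did not share the TGF direction of the other Id genes. It had 16 and 15 reads in Control N, 19 and 28 in Control TGF, 1 and 5 in AmeloD N, and 7 and 11 in AmeloD TGF, so the TGF library was the higher one in 4 of 4 pairs. The difference with TGF was 0.38 ± 0.18 (log2, SE; limma adjusted p = 0.404). In CPM it was 0.479 ± 0.313 in AmeloD and 1.23 ± 0.396 in Control (SD, n = 4 each). The filter of 1 CPM in 4 libraries was met by the Control libraries alone, so the genotype difference of -0.60 ± 0.18 (log2, SE) is given as a description with no test. With the filter of 1 read in 1 library, which lets Id4 in at any genotype, it was not called (limma, adjusted p = 0.104). DESeq2 on recovered reads did not call it either (adjusted p = 0.0582). The other 9 of 11 alternatives called it, but all except the filter of 0.3 CPM in 4 libraries kept the filter that fixed the difference. Of 8 refits that left out a library, 2 called it. The ratio of 24 to 78 reads per total was 0.405 (exact 95% interval 0.245 to 0.647).

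Bambi (ENSRNOG00000016066, mRatBN7.2 chromosome 17, 54121255 to 54126060, minus strand) encodes a pseudoreceptor without a kinase domain that dampens BMP, activin and TGF-beta signalling. It had 0 reads in all 8 libraries, which allows up to 0.169 to 0.284 CPM in a library (3 reads), for counting error only.

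Tsc22d1 (ENSRNOG00000001030, mRatBN7.2 chromosome 15, 51749510 to 51850958, plus strand) encodes a leucine zipper protein first described as a transcript stimulated by TGF-beta. It stood at 52.3 and 40.8 CPM in Control N, 61.7 and 62.2 in Control TGF, 18.7 and 16.5 in AmeloD N, and 36.8 and 31.6 in AmeloD TGF. The highest AmeloD library was below the lowest Control library, as for 5.53% of all tested genes in this direction, and within each genotype both TGF libraries were above both N libraries. Tsc22d1 fell from 54.2 ± 10.1 CPM in Control to 25.9 ± 9.83 CPM in AmeloD (SD, n = 4 each), a difference of -1.09 ± 0.12 (log2, SE; limma adjusted p = 5.04e-07), or 2.13-fold. It was called under every alternative run and whichever library was left out. The summed mesenchymal markers were also lower, and the summed dental epithelial markers higher, in AmeloD (the ranges above). The mesenchymal sum is nearly all Col3a1, which was lower in AmeloD (-1.11, limma adjusted p = 7.91e-07) and higher with TGF (0.49, adjusted p = 0.0401). The part of these markers in the genotype differences of the members was not tested.

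With TGF, Tsc22d1 rose from 32.1 ± 17.4 to 48.1 ± 16.2 CPM (SD, n = 4 each), by 0.67 ± 0.12 (log2, SE; limma adjusted p = 0.00207) and in 4 of 4 pairs. Among the alternatives and left-out libraries, the call was lost only when limma was run without the trend (adjusted p = 0.0791). Within AmeloD the difference was 0.92 ± 0.17 (adjusted p = 0.00157), a call lost with the filter of 1 read in 1 library (adjusted p = 0.0613) and without the trend (adjusted p = 0.128), and within Control it was 0.42 ± 0.17 (adjusted p = 0.678). The difference between them was 0.50 ± 0.24 and did not pass after adjustment (limma, adjusted p = 0.999). Ordered by genotype and label, the level was 62.0 ± 0.335 CPM in Control TGF, 46.5 ± 8.17 in Control N, 34.2 ± 3.65 in AmeloD TGF and 17.6 ± 1.55 in AmeloD N (SD, n = 2 each), with no overlap between neighbours. Fst had Control N below AmeloD TGF in its order, and Tsc22d1 had it above.

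**Figure D3:**
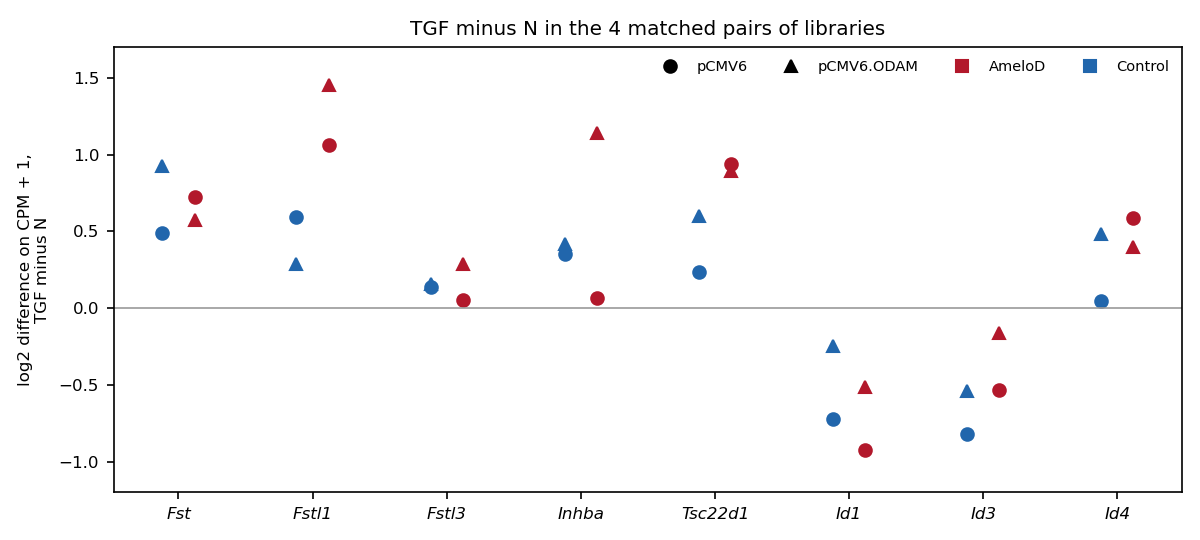
TGF minus N (log2 of CPM + 1) in each of the 4 matched pairs of libraries, for the 8 tested members; red is AmeloD, blue Control, circles pCMV6 and triangles pCMV6.ODAM. The 4 differences of Fst, Fstl1, Fstl3, Inhba, Tsc22d1 and Id4 are above 0 and those of Id1 and Id3 below 0; for Fstl1 the AmeloD pairs (1.06 and 1.45) are above the Control pairs (0.60 and 0.28).

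The direction with TGF was the same in all 4 pairs for each of the 9 members with reads. It was upward for 6 (Fst, Fstl1, Fstl3, Inhba, Tsc22d1 and Id4) and downward for 3 (Id1, Id2 and Id3). Of all tested genes, 12% were higher and 6.47% lower in all 4 pairs. The pairs differ in size: Inhba had 1.14 in AmeloD pCMV6.ODAM and 0.07 in AmeloD pCMV6, and its Control pairs had 0.42 and 0.35.

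By plasmid, limma called 0 of the 8 tested members and 0% of all tested genes, with 454 genes and 1 member (Inhba, -0.32 ± 0.13, adjusted p = 0.710) at an unadjusted p under 0.05. On recovered reads edgeR called 0 members and DESeq2 called 0. The genotype by TGF term was passed by 0 members and 0.0146% of all genes, with Fstl1 and Tsc22d1 at an unadjusted p under 0.05 beside 282 of all genes. The plasmid by TGF term was passed by 0 members and 0% of genes, with Inhba at an unadjusted p under 0.05 beside 504 of all genes. The median of all genes for that term was itself 0.158. The genotype by plasmid term was passed by 0 members and 0% of genes. At an unadjusted p under 0.05 it had 0 members, beside 308 of all genes. The interaction terms have 3 residual degrees of freedom, and edgeR and DESeq2 also called 0 members for them.

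As a description over the 8 libraries, Fstl1 and Tsc22d1 had a Pearson r of 0.906 on the log2 scale, Id1 and Id3 0.798, and Fst and Id3 -0.840. These libraries share the design, so a common genotype or TGF difference enters each r. Among genes of at least 10 CPM on average, the 3 most like Fst were Zfyve16 (r = 0.976), Tmem258b (0.965) and Adarb1 (0.941). Among those most like Tsc22d1 were Lgals1 (0.982) and Bmx (0.971), those most like Fstl1 were Myl12b (0.951), Itgb1 (0.948) and Rbm5 (0.946), and those most like Fstl3 were Carhsp1 (0.972), Atp6v1fnb (0.965) and Reep5 (0.952). For Id4 they were Serf2 (0.985), Npc2 (0.970) and Pak2 (0.969). For Inhba they were Serpinb6a (0.896), Ppbp (0.895) and Tln1 (0.878). The closest for Id1 was Atp5f1a (0.863) and for Id3 Ppfibp2 (0.890).

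Around the members, the rest of the pathway was mostly too low to test. Of 21 other genes listed with the ligands of the superfamily 2 were tested. One is a ligand, Bmp7, known from tooth epithelium, which was higher in AmeloD (0.75 ± 0.19, limma adjusted p = 0.00958). The other, Bmp1, is in spite of its name a protease that matures collagens and frees BMPs from chordin, and it rose with TGF (0.80 ± 0.20, limma adjusted p = 0.0370). Of 23 other antagonists and binding proteins 5 were tested and 0 passed with TGF, and 12 had 0 reads. With genotype 1 of these 5 passed, Htra1, a secreted protease that binds TGF-beta family ligands, which was higher in AmeloD (85.7 ± 12.9 against 55.9 ± 9.34 CPM, SD, n = 4 each; limma adjusted p = 0.000178). Of 17 other receptors the 2 tested, Tgfbr2 and Bmpr2, passed neither test.

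Among 13 tested Smads and intracellular regulators, Pmepa1 (3.01 ± 0.19) and the Smad corepressor Tgif1 (0.66 ± 0.17, limma adjusted p = 0.0345) rose with TGF, and 0 changed with genotype. None of the 17 other BMP response genes reached the filter. Smad7, the inhibitory Smad, had 4 reads with N and 27 with TGF, and Smad6, the one most tied to BMP, had 9 and 10. Of 10 tested basic helix-loop-helix genes, the class of AmeloD and of the partners of Id proteins, Bhlhe40 rose with TGF (1.18 ± 0.19, limma adjusted p = 0.000357). Mxd1 (1.22 ± 0.20, adjusted p = 0.000141) and Mxd4 (0.46 ± 0.15, adjusted p = 0.0404), which dimerise with Max, were higher in AmeloD.

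Of the 5 other tested genes of the TSC22 family and its partners, 0 passed with TGF. Tsc22d4 was higher in AmeloD (0.39 ± 0.10, limma adjusted p = 0.00637), the opposite direction to Tsc22d1. Of 9 tested TGF-beta induced genes 6 rose with TGF and 0 fell, led by Ccn2 (2.62 ± 0.15), Pmepa1 and Fn1 (1.12 ± 0.14). The median over these 9 was 0.83, beside 0.036 for all genes. In AmeloD, Ccn2, a matricellular growth factor, was higher (1.54 ± 0.15, limma adjusted p = 5.19e-08) and Fn1, fibronectin, lower (-0.59 ± 0.14, adjusted p = 0.00392).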

How the data were processed

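The 8 SF2 libraries were made with the QIAseq UPX 3' kit and read as paired ends on a DNBSEQ-G400, per the labels' protocols. Reads were trimmed, aligned with STAR 2.7.10a to mRatBN7.2 and counted with featureCounts 2.0.1, per the submitters' processing notes. How strand, molecular identifiers and multi-mapping reads were handled was not given in the sources used here. CPM values per gene are those deposited by the authors. With a tolerance of 0.01, 100% of them were whole multiples of 1 read, and they were scaled to library totals above the reads of the table.

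limma 3.58.1 in R 4.3.3 was run, with the eBayes trend, on log2(CPM + 1), with additive terms for TGF, plasmid and genotype in 8 libraries (4 residual degrees of freedom), two-sided, for 6849 genes that reached 1 CPM in at least 4 libraries. Interaction fits gave the contrasts within a genotype or plasmid. No combination was replicated, so the residual holds interactions as well as spread, and nothing says whether libraries came from separate cultures: p-values measure the spread between these libraries. Members are described by all their values; other genes named are, of each list, up to 3 past the test by adjusted p, or the 2 most abundant, and the 3 most alike per member, not all of which are reported here. Members and lists were chosen with earlier results of these data known. Alternatives were pseudocounts, filters, TMM and equal-median scaling, edgeR 4.0.16, DESeq2 1.42.0 (both on the whole reads), no trend, all interactions, leaving out each library and, chosen after seeing the data, matched pairs as blocks. The limma step was run on simulated reads of fixed spread, a check of the code that required recovery only of changes larger than those of the members.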

Additional observations from a re-analysis of the deposited data

Results flagged for a closer look

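Among the 54 groups of 4 libraries looked at (9 members with reads, 6 factor levels), 1 had a library standing far from the other 3. Id4 was at 1.82 CPM in the Control pCMV6.ODAM TGF library, while the other Control libraries held at most 1.07 CPM, a gap of 0.917 of the whole range. Chance flags about 1 in 20 such groups. The value rests on 28 reads, and without this library the genotype difference of Id4, a description with no test, was -0.57 (log2).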

How the results depend on the processing

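For the 40 member changes given in the text or plotted, each recomputed under the alternatives, 654 values kept direction and side of the threshold, 65 lost the call, 5 gained it and 24, none of them called, changed sign. The genotype difference of Inhba became -0.048 with TMM, -0.052 with equal medians, -0.027 with edgeR and -0.029 with DESeq2, and that of Id1 -0.039, -0.059, -0.046 and -0.049. When a library was left out, the genotype difference ran from -0.127 to 0.195 for Inhba, from -0.074 to 0.104 for Id1 and from -0.012 to 0.173 for Id3, the plasmid difference from -0.083 to 0.251 for Fstl1 and from -0.046 to 0.139 for Id3, and the genotype by TGF term of Fst from -0.249 to 0.125. The TGF comparison called 124 genes, 67 with a filter of 1 read in 1 library, 62 without the trend, and 71 to 104 when a library was left out; it called 3 members, 1 (Fst) without the trend and 2 to 3 when a library was left out. The genotype comparison called 946 genes and 606 with a filter of 5 CPM. Id4 included, it called 4 members, 2 with the 1-read filter, 2 with the 5 CPM filter (which removes Fstl1 and Id4), and 2 to 3 when a library was left out (2 without AmeloD pCMV6 N, AmeloD pCMV6.ODAM TGF, Control pCMV6 N, Control pCMV6.ODAM N or Control pCMV6.ODAM TGF). The plasmid comparison called 0 genes, 1 with DESeq2, 2 with all interactions and 0 to 2 when a library was left out. The genotype by TGF term called 1 gene, 0 with a pseudocount of 0.5 CPM, the 1-read filter, edgeR, DESeq2 or no trend, and 0 to 7 when a library was left out; plasmid by TGF called 0 to 3 and genotype by plasmid 0 to 2 in those refits. The cause of these changes was not tested. The share of higher genes among the calls moved with scaling: for genotype it was 65.6% as deposited, 52.5% with TMM and 49% with equal medians, and for TGF 84.7%, 74.1% and 74.8%. The labels give no replicate numbers to block on. Each matched pair of libraries was also taken as a block (the other factors and their interaction, 3 residual degrees of freedom), an alternative added after seeing the data. This fit called 125 genes and 3 members for TGF and 0 and 0 for plasmid. For genotype it called 1035 genes and 4 members, again with Id4, whose difference the filter fixed. No member's call changed. Depth limits Id2, Id4 and Bambi, with 58, 102 and 0 reads in all.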
